A study of Mus musculus with 8 samples.

Results

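The array design carries probes for long intergenic non-coding RNAs (lincRNAs) that it names by a genomic interval and a strand, and the members described here are the intervals shorter than 5000 bases. Members were taken as all non-control probes named by a chromosome, a start, an end and a strand on mouse build mm9, with end minus start below 5000. The probes of 1 interval on 1 strand were averaged. This gave 1525 short intervals, measured by 3942 probes, out of 4607 stranded intervals of any length. The whole array was fitted as 44107 units, which were these intervals and every other probe alone.

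RNA came from 8 whole mouse embryos, collected at embryonic day 8.5 (E8.5), and each was hybridised to its own single-colour Agilent array. All 8 embryos were heterozygous for Eedl7Rn5-1989SB, a hypomorphic allele of *Eed* on a C57bl6/129 background, and all mothers were wild type. The father was homozygous for the allele for 4 embryos (HOM father) and heterozygous for 4 (HET father), and each group held 2 female and 2 male embryos. The study used 3 fathers of each genotype, paired as brothers across the genotypes, so that some of the 4 embryos of a group share a father. The files do not name the fathers, and p-values measure the spread between embryos. Whole embryos hold many cell types, so that fewer cells of a type and less RNA per cell cannot be told apart.

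EED is a core subunit of Polycomb repressive complex 2 (PRC2), which places the repressive histone mark H3K27me3 on chromatin. LincRNAs are transcribed from between protein-coding genes and do not encode long proteins. They are usually less abundant and more restricted to cell types than mRNAs, and intergenic transcripts can include processed copies of mRNAs that were reinserted into the genome by retrotransposition. The comparison asked whether short lincRNA intervals differed between embryos whose fathers had reduced EED function and embryos whose fathers carried a wild-type copy of *Eed*.

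The 4 HOM father arrays were all on 1 slide and the 4 HET father arrays on another, so that father and slide cannot be told apart in any value below. Among all spots, 50.7% to 59.8% per array were well above background, and replicate 1 of each group stood apart, with a lowest normalised signal of -8.03 and -7.84 compared with -7.30 to -6.94 on the other 6 arrays. *Xist*, transcribed from the inactive X chromosome, lay between 0.37 and 1.04 in the 4 embryos labelled female and between -7.15 and -6.87 in the 4 labelled male. *Eed* itself did not differ beyond replicate error (4.72 and 4.71, adjusted p = 0.907), and all embryos carry the same *Eed* genotype by their labels. All 15 marker genes of the E8.5 embryo were well above background on all 8 arrays, from the haemoglobin gene *Hbb-bh1* to the neural gene *Pax6*. All signals are log2 values relative to the 75th percentile of the array, so that 0 is that percentile, 1 unit is 2-fold, and signals of different probes are not amounts of RNA that can be set side by side.

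Short intervals were between 61 and 4970 bases long, with a median of 653 bases, and 983 of them (64.5%) were under 1000 bases. They were spread over both strands, 774 forward and 751 reverse, and over all chromosomes except Y. Of these, 1113 were measured by 3 probes, 191 by 2 and 221 by 1. A longer interval overlapped 843 of them, 785 on their own strand and 805 on the opposite strand, while 12 overlapped another short interval. None had a partner with the same start and end on the other strand. At the length limit, the members just inside were chr16:30200995-30205965 on the reverse strand (4970 bases, mean signal -5.12) and chr19:23064968-23069896 on the forward strand (4928 bases, -6.87). The intervals just outside were chr1:139860777-139865792 (5015 bases, -6.97) and chr8:24327427-24332452 (5025 bases, -4.74), both on the reverse strand. Gene, exon or intron annotation on mm9 and probe sequences were not used here, so intervals are given by position alone.

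Most short intervals gave little signal. On each array between 658 and 891 of the 1525 had at least 1 probe well above background. All 8 arrays detected 539 of them and no array detected 395. Of single probes, 22.1% were well above background on all 8 arrays, compared with 49.5% of the other probes on the array, and 49.4% were so on none, compared with 31.7%. The filter on low signal, which asked for detection on at least 4 of 8 arrays and a signal at or above the 20th percentile, was passed by 711 short intervals (46.6%) and left 814 without a test. The share was 61.7% for intervals of 5000 to 40000 bases, 62.8% for those of 40000 bases or more and 62.1% for all other probes. Short intervals with 1 probe passed least often (30.8% of 221), and those with no longer interval around them passed less often (37.1% of 682) than those with longer intervals on both strands (54.5% of 747). Intervals with more probes have more chances to pass, and these shares were not tested. Tested members had a median signal of -4.48, while the median over all units tested was -0.35. Only 46 lay above the 75th percentile of the array. Between arrays, the 711 signals correlated at 0.966 to 0.981 within HOM father, 0.972 to 0.982 within HET father and 0.959 to 0.986 between the groups.

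The 6 brightest short intervals had signals far above the 75th percentile of the array. The interval chr6:116123643-116124550 on the forward strand read 7.11, 7.22, 7.12 and 7.26 in HOM father and 7.31, 7.27, 7.44 and 7.40 in HET father embryos. The groups did not overlap, yet the change of -0.18 (SE 0.06) had an adjusted p of 0.0801. On chromosome 17, the reverse-strand interval chr17:17481706-17482457 averaged 7.10 ± 0.12 and 7.14 ± 0.05 (SD, n = 4), with 1 outlier spot left out. A pair of forward-strand neighbours, chr17:39982023-39983277 and chr17:39983902-39985688, averaged 6.04 ± 0.17 and 5.62 ± 0.08 in HOM father embryos, compared with 6.33 ± 0.08 and 5.78 ± 0.09 in HET father embryos. Both are within the same longer interval, chr17:39960567-39992817, whose forward and reverse strands gave 4.54 and 4.33. The remaining 2 of the 6 brightest, chr4:33364774-33364898 on the reverse strand and chr14:44292637-44293014 on the forward strand, had means of 5.96 and 4.85 over all arrays. None of these 6 passed the test by father (changes from -0.29 to 0.17, adjusted p from 0.0682 to 0.78), and every array detected all 6.

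Between fathers, 2 of the 711 tested short intervals passed an adjusted p of 0.01 and a 2-fold change, which are the study's own limits, and both were higher in HOM father embryos. The background was 0.917% of 27140 units tested, and the members' share was 0.281%. Of all units that passed, 243 were higher and 6 lower, so that this direction was not particular to short intervals. Among longer intervals, 14 of 1473 with 5000 to 40000 bases and 5 of 436 with 40000 bases or more passed. Both short intervals carry 1 probe and lie on the forward strand, so that no second probe bears on either value.

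The larger change was at chr10:83364590-83364873 (283 bases). Its signals were -3.56, -3.37, -3.32 and -3.44 in HOM father and -5.04, -5.63, -5.03 and -5.95 in HET father embryos. Every HOM father embryo was above every HET father embryo. Detection, meaning a signal well above background, was seen in all 4 HOM father embryos but in 1 HET father embryo. It thus passed the filter largely through the group in which it is high. The fitted change was 1.99 (SE 0.21, adjusted p = 0.00108), and its size rests on HET father signals of which 3 were not above background. A longer interval of 76900 bases on the opposite strand there, chr10:83325890-83402790, changed by 0.37 (adjusted p = 0.330).

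The other was chr8:49872686-49872913 (227 bases), with -2.85, -2.53, -3.06 and -2.68 in HOM father and -4.09, -3.91, -3.69 and -3.68 in HET father embryos. The groups again did not overlap, and every array detected the interval. Its change of 1.06 (SE 0.14, adjusted p = 0.00259) was close to the 2-fold limit. It fell under that limit without HOM father replicate 2 or HET father replicate 1 (both 0.98), and its adjusted p rose to 0.0112 and 0.0108 without HOM father replicate 4 or HET father replicate 2. The opposite-strand interval of 20150 bases, chr8:49853937-49874087, changed by -0.23 (adjusted p = 0.271).

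**Figure D1:**
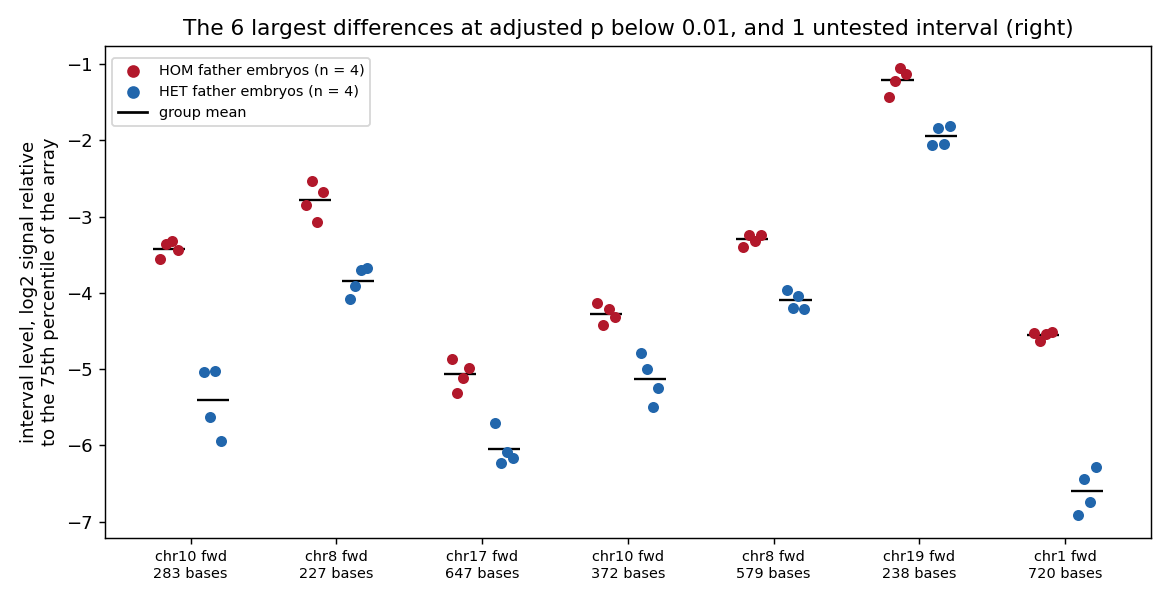
Signal of 7 short intervals in every embryo, as log2 relative to the 75th percentile of each array, with HOM father embryos in red, HET father embryos in blue and a line at each group mean (n = 4). The chromosome 10 interval of 283 bases shows the widest gap among those tested (-3.42 against -5.41). In all 7 intervals the groups do not overlap. The intervals were chosen for father differences in these same embryos, so that this separation is not independent evidence. In several of them most HET father signals were not well above background.

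Without the fold limit, 22 short intervals were higher and 1 was lower in HOM father embryos at an adjusted p below 0.01, where the backgrounds over all units were 4.72% higher and 1.32% lower. Under median scaling these counts were 10 higher and 21 lower. With the number in the source names as a random block, 12 of these 23 intervals stayed below 0.01, compared with 11 under median scaling and 6 to 14 when 1 array was left out. The labels do not say what that number marks. HOM father replicates 3 and 4 share it, as do HET father replicates 1 and 2, and the fitted correlation within a number was 0.35. With the replicate number as a block 1 of the 23 stayed, and 6 did without a filter or without both replicate 1 arrays. The intervals other than both above were named after their values were seen. The next largest changes were at chr17:47022781-47023428 (0.98, SE 0.14, adjusted p = 0.00369), chr10:59385064-59385436 (0.86, SE 0.15, adjusted p = 0.00877) and chr8:122997422-122998001 (0.80, SE 0.07, adjusted p = 0.000597), all on the forward strand. The first was detected in 3 HOM father embryos and 1 HET father embryo and the second in 4 and 1, so that their sizes rest mostly on HET father signals at background. The last of these was detected on every array and had the lowest adjusted p of the 711, with -3.39, -3.24, -3.32 and -3.24 in HOM father and -3.96, -4.19, -4.04 and -4.21 in HET father embryos. Its spread within a group was small against the gap between groups. Less than 5000 bases away on the opposite strand, the short interval chr8:122994515-122994743 gave 4.18 ± 0.11 in HOM father and 3.78 ± 0.13 in HET father embryos (SD, n = 4), a change of 0.39 with an adjusted p of 0.0185.

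Among the brighter intervals of this set, chr18:35975361-35975672 on the forward strand was 2.30 ± 0.14 in HOM father and 1.72 ± 0.17 in HET father embryos (change 0.59, adjusted p = 0.00913). The reverse-strand interval chr13:21856097-21859200 was 1.95 ± 0.12 and 1.42 ± 0.12 (change 0.53, adjusted p = 0.00519). The interval chr8:86718451-86718832, also on the reverse strand, was 1.86 ± 0.10 and 1.47 ± 0.08 (change 0.40, adjusted p = 0.00733). In each of these the lowest HOM father embryo was above the highest HET father embryo. The chromosome 18 and chromosome 13 intervals carry 1 probe each and the chromosome 8 interval carries 2. The 1 lower interval was chr9:56391562-56392142 on the forward strand, with 0.35, 0.18, 0.45 and 0.29 in HOM father and 0.68, 0.71, 0.71 and 0.65 in HET father embryos, a change of -0.37 (SE 0.06, adjusted p = 0.00824). It too carries 1 probe, as do 10 of the 22 higher intervals. The other 14 intervals rose by between 0.34 and 0.73.

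Fitted changes of 2-fold or more that did not pass were seen in 4 further short intervals, of which 1 was detected in no HET father embryo. At chr1:134171292-134176062 on the reverse strand, the signals were -4.13, -2.87, -3.08 and -4.57 in HOM father and -5.37, -5.43, -4.87 and -5.12 in HET father embryos. The HOM father embryos varied widely but none overlapped the HET father embryos (change 1.53, SE 0.38, adjusted p = 0.0307). On the X chromosome, chrX:98989930-98994344 on the forward strand averaged -2.99 ± 0.66 and -4.50 ± 0.68 (change 1.51, adjusted p = 0.0433). The reverse-strand interval chr5:112539219-112540601 was detected in all 4 HOM father embryos and in no HET father embryo. Its fitted change of 1.08 (adjusted p = 0.0763) thus rests on HET father signals at background. The interval chr3:65729664-65731697, also on the reverse strand, showed the same detection pattern (change 0.43, adjusted p = 0.129). Setting HET father signals no lower than the lowest signal well above background on their array gave 1.90-fold and 1.34-fold. These are not lower limits, as probes with higher signals than that were undetected on some arrays. No short interval was detected on all HET father arrays and on no HOM father array. These detection patterns were not counted over all units. Single HOM father arrays detected 712 to 891 short intervals and single HET father arrays 658 to 823. At chr9:96673952-96674816 the groups overlapped (change 1.04, SE 0.95, adjusted p = 0.493).

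**Figure D2:**
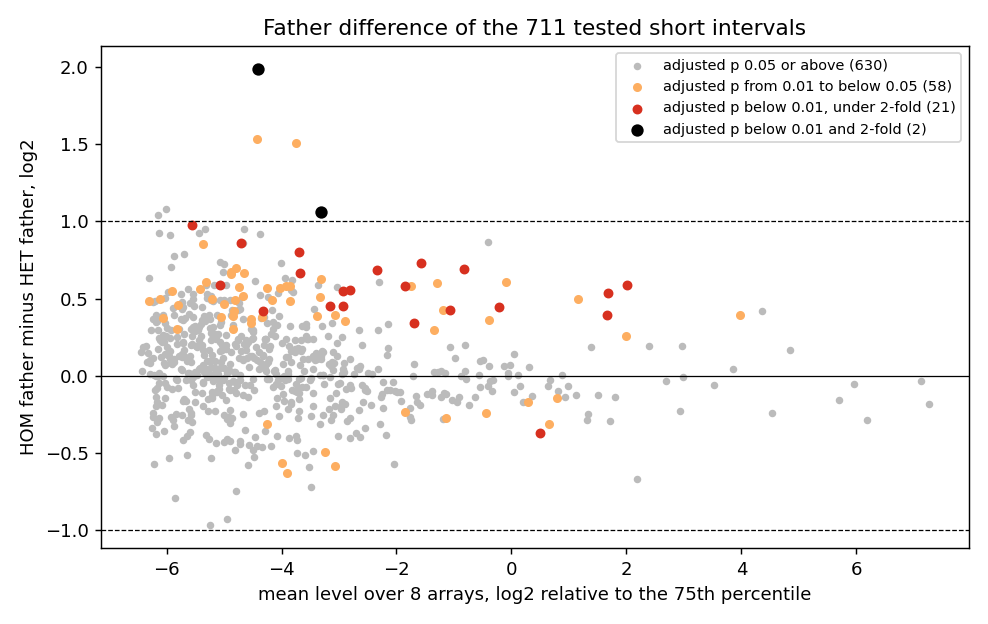
Difference between father groups (HOM minus HET, log2) against mean signal over 8 arrays for each of the 711 tested short intervals, coloured by adjusted p, with dashed lines at 2-fold. The 2 intervals past both limits (black) are dim, and the differences narrow as the signal rises.

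At an adjusted p below 0.05 with no fold limit, 69 short intervals (9.70%) were higher and 12 (1.69%) lower in HOM father embryos, and the backgrounds were 9.15% higher and 8.75% lower. The signals of 78 members (10.97%) were higher in every HOM father embryo than in any HET father embryo, beside a background of 11.2%, and 26 (3.66%) lower in every one, beside 13.9%. The shares of higher intervals were thus near the background and those of lower intervals below it. Fewer lower calls were also seen among the other dim probes. Below a signal of -3, where 545 of the 711 lie, 8.44% of short intervals were higher and 0.917% lower, compared with 15.4% and 1.72% of other probes and 7.33% and 0.533% of longer intervals. From -3 to below 0, 14.2% of short intervals were higher and 2.5% lower, compared with 12.2% and 5.03% of other probes and 15.2% and 2.64% of longer intervals. At a signal of 0 or more, where 46 short intervals lie, 6 were higher (13.0%) and 4 lower (8.70%). The shares there were 5.06% and 15.04% of other probes and 15.2% and 8.57% of longer intervals. Intervals with 1 probe were higher more often (17 of 68 tested, 25%, with 3 lower) than those with 3 probes (45 of 548, 8.21%, with 7 lower), and their median signals were -2.95 and -4.70. This difference between interval kinds was not tested. The median change of the 711 was 0.08, compared with 0.13 for intervals of 5000 to 40000 bases, 0.10 for those of 40000 bases or more and -0.03 for all units.

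The direction depended on the scaling. Median scaling moved the median of all units to -0.22, by more than any other setting, and that of short intervals to -0.11, and turned the split at an adjusted p below 0.05 to 35 higher and 97 lower. This scaling shifts every unit alike, and over all units the split went from 2482 higher and 2374 lower to 1519 and 9836. Quantile normalisation gave 68 and 32 with a median of -0.01, scaling to the probes detected on all arrays gave 79 and 7 with 0.12 (2871 and 1513 over all units), and normexp background correction gave 51 and 25 with -0.000864. Relative to all units, the median of short intervals was higher by 0.11 under the 3 shift scalings, by 0.02 after quantile normalisation and by 0.04 after normexp.

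**Figure D3:**
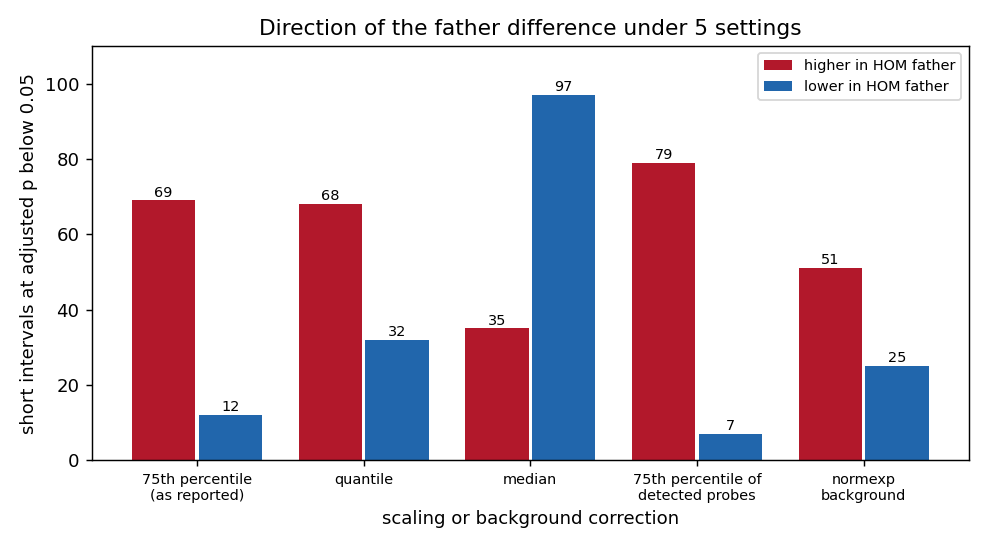
Number of short intervals higher (red) and lower (blue) in HOM father embryos at an adjusted p below 0.05 under 5 scalings or background corrections. The split runs from 79 higher and 7 lower to 35 higher and 97 lower, while that of all units runs from 2871 and 1513 to 1519 and 9836 under the same settings.

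Most intervals were read through few detected probes, and some changes of single probes did not pass in the interval average. Of the 548 tested members with 3 probes, 167 had all 3 probes well above background on at least 4 arrays, 105 had 2, 258 had 1 and 18 had none. In the 309 members with 2 or more probes tested alone, the changes of the probes differed by a median of 0.26. The changes of the 711 tested intervals had a median of 0.08 and quartiles of -0.10 and 0.30. Differences between probes of 1 interval were thus not small beside the changes of the intervals. In a fit on single probes, 1168 member probes in 692 intervals were tested and 19 probes, each in a different interval, passed both limits (1.63%, beside a background of 1.24%). All 19 were higher in HOM father embryos, 11 of them were detected on all 8 arrays, and 13 were the brightest probe of their interval. In the fit on intervals, 243 of all units that passed were higher too and 6 lower. The probes not detected on all arrays were each detected in more HOM father than HET father embryos. They thus passed the filter largely through the group in which they are high. The averages of only 2 of these 19 intervals passed, and those are the 1-probe intervals above.

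The intervals below were picked for the contrast between a probe and its interval average. The largest changes were at chrX:120300373-120302404 on the forward strand and chr9:34192364-34192810 on the reverse strand. The 1 detected probe of the X-linked interval read -3.89, -3.36, -3.39 and -3.56 in HOM father and -5.18, -5.65, -5.92 and -5.19 in HET father embryos. It changed by 1.93 (SE 0.20, adjusted p = 0.000732), while its neighbours were well above background on no array and the interval average changed by 0.63 (adjusted p = 0.0696). The detected probe on chromosome 9 changed by 1.79 (SE 0.31, adjusted p = 0.00654), and its interval by 0.48 (adjusted p = 0.0275). Both probes were detected in all 4 HOM father embryos and 1 HET father embryo, so that they passed the filter largely through the group in which they are high and their sizes rest mostly on HET father signals at background. Brighter single probes passed at chr6:146493273-146493932 on the reverse strand (1.25, SE 0.10, adjusted p = 0.000265) and at chr14:67587065-67588705 on the forward strand (1.13, SE 0.16, adjusted p = 0.0026). In the latter all 3 probes were detected on every array, and they changed by 1.13, 0.46 and -0.09, so that they disagreed without any of them being dim. At chr14:76237150-76237464 on the reverse strand, 1 probe changed by 1.15 (adjusted p = 0.00115) and another by -1.06 (adjusted p = 0.574), and the average changed by -0.06. At chr19:9060613-9060851 on the forward strand, by contrast, all 3 tested probes changed the same way, by 0.64, 1.00 and 0.54.

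**Figure D4:**
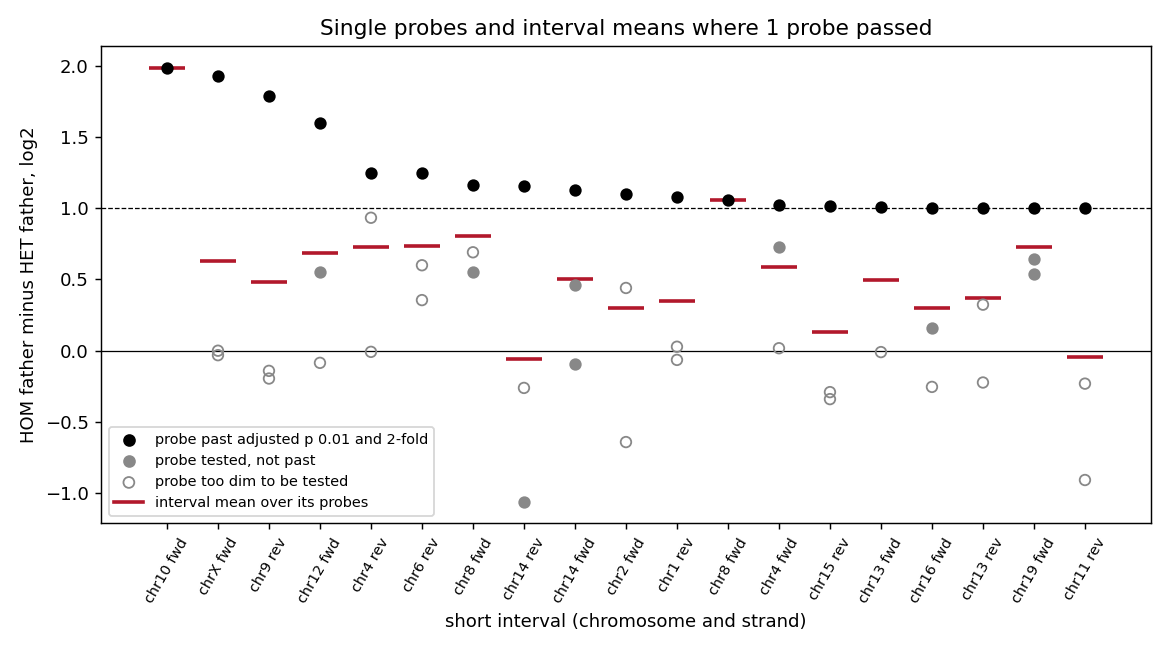
Difference between father groups (HOM minus HET, log2) of each probe in the 19 short intervals where 1 probe passed an adjusted p of 0.01 and 2-fold (black), with tested probes that did not pass in grey, probes too dim to test as open circles and the interval average as a red line. The averages lie below the passing probe in all 17 intervals with 2 or 3 probes, down to -0.06.

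The study's list of changed transcripts holds 3 probes in short intervals. That list was chosen on these same embryos, so that their direction is not independent evidence. It places the first, at chr12:82500406-82501102 on the forward strand, in a retrotransposed copy of *Hspe1*, which encodes a mitochondrial chaperonin. That probe read 2.76, 2.86, 2.68 and 2.81 in HOM father and 1.35, 1.02, 1.21 and 1.14 in HET father embryos. Its change was 1.60 (SE 0.08, adjusted p = 4.92e-05), with more than 1 log2 unit between the groups. A second probe of the interval changed by 0.55 (SE 0.08, adjusted p = 0.00251), the third was well above background on no array, and the average changed by 0.69 (SE 0.10, adjusted p = 0.00393). The same-strand longer interval around it, chr12:82495575-82516300, passed both limits (1.02, adjusted p = 0.000211) and its opposite strand did not (0.43, adjusted p = 0.340).

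The second, at chr1:121054422-121055142 on the forward strand, is placed by that list in a retrotransposed copy of *Gapdh*, a glycolytic enzyme gene. It was detected in 3 HOM father embryos and no HET father embryo, and was therefore not tested. Its signals were -4.52, -4.63, -4.54 and -4.52 in HOM father and -6.92, -6.45, -6.75 and -6.28 in HET father embryos. With HET father signals set no lower than the lowest signal well above background on their array, it was 3.46-fold higher in HOM father embryos. As with the detection patterns above, this is not a lower limit. The third lies in chr17:47022781-47023428, where the listed probe, detected in 3 HOM father embryos and no HET father embryo, averaged -4.56 ± 0.17 and -6.42 ± 0.20 (SD, n = 4) and the other probe -5.58 ± 0.28 and -5.68 ± 0.41. The parent genes were bright and did not pass, at 8.06 and 8.27 for *Gapdh* (change -0.21, adjusted p = 0.0986) and 6.85 and 7.03 for *Hspe1* (change -0.18, adjusted p = 0.0698).

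Besides the chromosome 12 pair, 3 tested short intervals overlapped a longer interval that had passed, and none of these 3 passed both limits. All changed in the same direction as the longer interval, and the difference in size was not tested. Every longer interval that passed was higher in HOM father embryos, and 61.3% of all tested short intervals had a positive change. The forward-strand interval chr12:111322030-111323387 changed by 0.37 (adjusted p = 0.0589) inside a longer one on its own strand that changed by 1.21. The reverse-strand interval chr15:84752337-84752984 changed by 0.30 (adjusted p = 0.164) opposite one that changed by 1.22, and chr5:35893908-35896613, also reverse, changed by 0.35 (adjusted p = 0.0319) opposite one that changed by 1.01. Short intervals also lay in runs on 1 strand, with gaps of at most 5000 bases. The run with most tested members was on the forward strand of chromosome 18 between 35967988 and 35978109, with 6 of 9 tested. Their changes were all positive, from 0.04 to 0.68, and 1 of the 6 passed an adjusted p of 0.05. Runs on chromosome 13 (4 of 6 tested on each strand) and the X chromosome (4 of 5) held none that did.

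By sex, 1 short interval passed both limits, beside a background of 0.0663%. At chr4:146890596-146891297 on the forward strand (701 bases), the females read -5.54 and -5.73 (HOM father) and -5.80 and -5.90 (HET father), and the males -3.74 and -3.70 (HOM father) and -3.89 and -3.57 (HET father). The sexes did not overlap and father made little difference within either sex. The change, female minus male, was -2.02 (SE 0.09, adjusted p = 0.000492). All 3 probes were well above background in all 4 males, compared with 1, 2 and 0 of the 4 females, so that the size of the change rests mostly on female signals at background. For each probe every male was above every female. Next was chr8:26347473-26348052 on the reverse strand, which changed by -0.69 (adjusted p = 0.0205). None of the 43 tested X-linked short intervals passed, with changes from -0.49 to 0.46 and a lowest adjusted p of 0.649. At an unadjusted p below 0.05, 54 short intervals (7.59%) differed by sex, compared with 5.28% of all units.

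**Figure D5:**
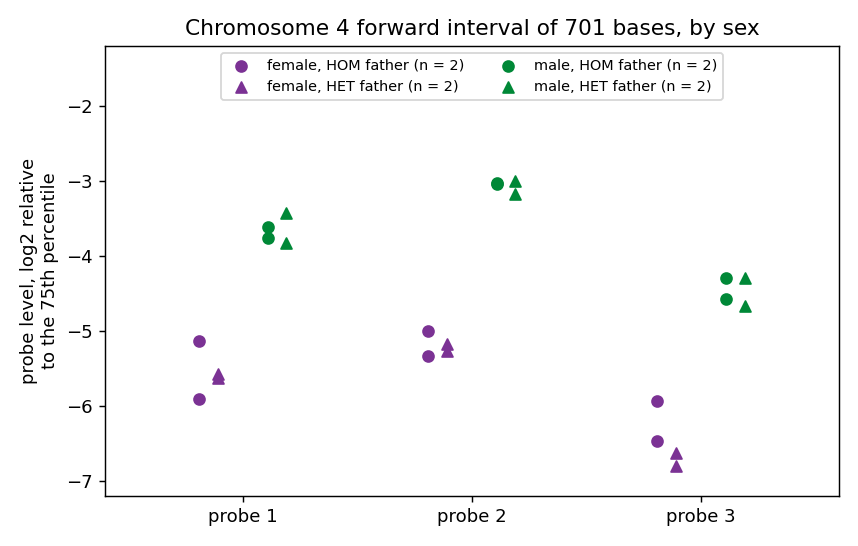
Signal of the 3 probes of the chromosome 4 forward-strand interval of 701 bases in each embryo, as log2 relative to the 75th percentile of the array, with females in purple, males in green, HOM father as circles and HET father as triangles. The 4 males lie above the 4 females for each probe.

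No short interval showed a father difference that itself differed between the sexes, and no unit on the array did (background 0%). This was limma's interaction test at the same limits, and it also gave no call with a trended, robust fit. At an unadjusted p below 0.05, 37 short intervals (5.20%) and 4.40% of all units stood out. The lowest adjusted p of a short interval was 0.0961, at chr5:137411861-137413010 on the forward strand. Its females read -0.31 and -0.08 (HOM father) and -0.33 and -0.25 (HET father), and its males 0.25 and 0.28 (HOM father) and -1.29 and -1.46 (HET father).

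Lists of other genes were read from the same fit. Of 11 PRC2 genes and of 22 named non-coding RNA genes, among them *Meg3*, *Malat1* and *Kcnq1ot1*, none passed by father, with median changes of -0.01 and -0.05. *Kcnq1ot1*, an imprinted antisense RNA, had the lowest adjusted p of them (-0.68 and -0.11, change -0.57, adjusted p = 0.0111). None of 5 yolk sac endoderm genes, 15 embryo genes or 3 genes of adult erythroid cells passed either. Among genes of tissues outside the embryo, 1 of 4 tested trophoblast genes passed, the placental lactogen *Prl3b1* (-0.84 and -2.12, change 1.27, adjusted p = 0.000531), while *Gcm1* was lower (3.03 and 4.102, change -1.07, adjusted p = 0.0252). The others, *Prl3d1* and *Ascl2*, changed by 1.88 and 0.60 (adjusted p = 0.221 and 0.624), and the median of the 4 was 0.94. Their summed level, relative to the 75th percentile on a linear scale, was 9.17 to 17.1 in HOM father and 13.7 to 25.1 in HET father embryos. None of 4 tested maternal decidua genes passed (median change 0.73, *Prl6a1* 1.24 with an adjusted p of 0.0342), and their summed level was 3.62 to 24.99 and 2.72 to 6.40. The prolactin family gene *Prl8a2* of the decidua averaged 2.55 and -0.42 (adjusted p = 0.228). *Tpbpa* of the trophoblast list and *Prl3c1* of the decidua list were not well above background on any array. The part of such tissue in the differences above was not tested.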

How the data were processed

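Total RNA (0.2 µg) was labelled with Cy3 and hybridised to 1 array per embryo. The authors made the deposited intensity of each spot with Agilent Feature Extraction 11.0.1.1, as background-subtracted, spatially detrended signals, not normalised between arrays. The authors' value table of the series holds the same intensity, rounded. The deposited spot flags (other values, 0 or 1) gave detection and outliers. Outlier spots were left out, which were 2 among members.

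The log2 processed signal minus the 75th percentile of each array was averaged over spots and then over the probes of an interval. Units passed with detection and a signal at or above the 20th percentile on at least 4 of 8 arrays. Differences were tested with limma 3.58.1 in R 4.3.3 (lmFit and eBayes, two-sided, Benjamini-Hochberg over 27140 units), by father alone, by sex with father, and for the interaction, after the code was tested on simulated data. Calls needed an adjusted p below 0.01 and 2-fold, as in the study's methods. Accessions were matched to RefSeq symbols (GRCm38.p6, names only) for 48.9% of probes. The 13 interval probes without a strand were left out. Of genes with several probes, the brightest was read.

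Members, gene lists and tests were chosen with earlier results of these data known. Named were all intervals called by father or sex, the 6 brightest, those nearest the length limit and those holding a probe of the study's list. Intervals given beyond these were chosen after their values were seen. The normexp alternative used median spot signals, as mean signals were not used here. The number of arrays limits the precision.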

Additional observations from a re-analysis of the deposited data

Results flagged for a closer look

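In the groups of 4 embryos, 1 of 72 sets of values had a sample far from the others, where chance alone gives about 1 in 20. It was the lowest normalised signal of HOM father replicate 1, at -8.03, compared with -7.09 to -7.06 on the other 3 arrays of that group. The 72 sets were the signals of the named intervals and 3 measures of each array.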

How the results depend on the processing

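The number of short intervals called by father was 2. It was 1 after quantile normalisation or median scaling and 0 after normexp, where the chromosome 10 interval changed by 0.88. Without a filter it was 4, with the brightest probe 15, with the probes detected on at least 4 arrays 13, and with single probes 19. Scaling to the probes detected on all arrays gave 3. Leaving out 1 array gave 1 to 2, with 1 without HOM father replicate 4, HET father replicate 1 or HET father replicate 2. Without HOM father replicate 2 the count was 2, but the chromosome 8 interval fell under 2-fold and was not among them. An adjusted p below 0.05 with no fold limit gave 81. Both replicate 1 arrays were left out as an alternative chosen after seeing the data, which gave 0 by father and 0 by sex. The chromosome 10 interval then no longer passed the filter, and the chromosome 8 interval changed by 1.00 (adjusted p = 0.0191). With a replicate block the count by father was 0, and both called intervals had an adjusted p of 0.0125 and 0.0216. The labels do not say whether the replicate numbers mark a pairing. The deviations of same-numbered arrays correlated at 0.25, -0.08, -0.15 and 0.18 for replicates 1 to 4. The highest correlations with other numbers were 0.08, 0.22, 0.20 and 0.12, so that these values do not settle it.

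By sex, the count of 1 became 0 after normexp and 2 at an adjusted p below 0.05. It was also 0 under the strict filter, which the chromosome 4 interval could not pass. That interval was detected on 3 of the 4 arrays of each father group, so it was not tested there. Leaving out 1 array gave 1 each time. The interaction gave 0 in all 19 settings tried. The number tested was 1525 without a filter, 376 under the strict filter and 669 to 701 without 1 array. The strict filter asked for 0.5 of an interval's probes on all arrays of a father group. The median change of 0.08 became -0.0147 after quantile normalisation, -0.11 with median scaling, 0.19 with the brightest probe, 0.18 with detected probes and 0.18 with single probes, and lay between 0.04 and 0.11 without 1 array. The cause of these shifts was not tested.

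Of 31 named intervals with a fitted change, some were past the study's limits or an adjusted p of 0.01 by father. These kept their direction in every setting that tested them. They were chosen by those limits on the same arrays, so that this is not independent evidence. Near-zero changes turned. That of chr4:146890596-146891297 was -0.0436 after quantile normalisation, -0.0755 with median scaling, -0.0690 after normexp, -0.0341 with the source-name number as a random block, and between -0.26 and 0.52 without 1 array. That of chr17:17481706-17482457 was 0.0804 after quantile normalisation and 0.00825 with scaling to detected probes, and that of chr4:33364774-33364898 was 0.0273 after quantile normalisation. That of chr14:44292637-44293014 was -0.0249 with median scaling and -0.0341 with the brightest probe. That of chr16:30200995-30205965 was 0.39 with the brightest, detected or single probes, and between -0.32 and 0.11 without 1 array. Low signal limits what can be read, as 59.5% of tested members lay below -4.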
